A study of Mus musculus with 6 samples.

Results

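Genes that code for immediate early transcription regulators, 3 of the EGR family (Egr1, Egr2 and Egr3), their corepressors Nab1 and Nab2, the transcription factor Srf and 3 of the NR4A family (Nr4a1, Nr4a2 and Nr4a3), were followed in mouse macrophages after 1 h of LPS. They were chosen by gene symbol, with earlier results of these data known. All 9 of 9 were found among the 55335 genes of the count table. The cells were BMDMs (macrophages grown from the bone marrow of C57BL/6 mice for 6 d in medium with 20% L929-conditioned medium) in both groups. The library names mark the cells of both groups as wild type (WT). According to the study's methods, its mice were young adult males. Total RNA was sequenced in 3 libraries from cells given PBS, the control, and 3 from cells given LPS, each for 1 h. The dose of LPS for these cells is not given in the sources used here, and the labels do not say whether replicates came from separate animals, so p-values measure the spread between these libraries.

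As background, EGR proteins are zinc finger transcription factors whose genes are switched on within minutes by growth factors, antigen receptors and microbial products, largely through the MEK-ERK kinases. ERK phosphorylates ETS partners of SRF, which sits on CArG boxes before such genes. NAB1 and NAB2 bind EGR proteins and bring in the NuRD chromatin remodelling complex, which limits EGR activity. The NR4A proteins are orphan nuclear receptors that act without a known physiological hormone, so that their activity follows largely from how much of each is made. In macrophages, LPS is a classical inducer of both families.

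Of the 9 genes, 7 rose and none fell by the criteria used here, which asked for a Benjamini-Hochberg adjusted p below 0.05 in the quasi-likelihood test of edgeR together with a log2 fold change beyond 1 in size. Among all 15687 tested genes, 10.5% rose and 10.4% fell by the same criteria, so that rises made up 50.4% of the calls, against 29.0% when libraries were scaled by size alone. The 3 NR4A genes had the largest folds, the 3 EGR genes followed, and Nab1 rose least. Nab2 and Srf did not pass both criteria. The median log2 fold change was 3.79 over the 9 genes and -0.01 over all tested genes. All 9 passed the filter on low counts, which kept Nr4a2 only through its LPS libraries.

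**Figure D1:**
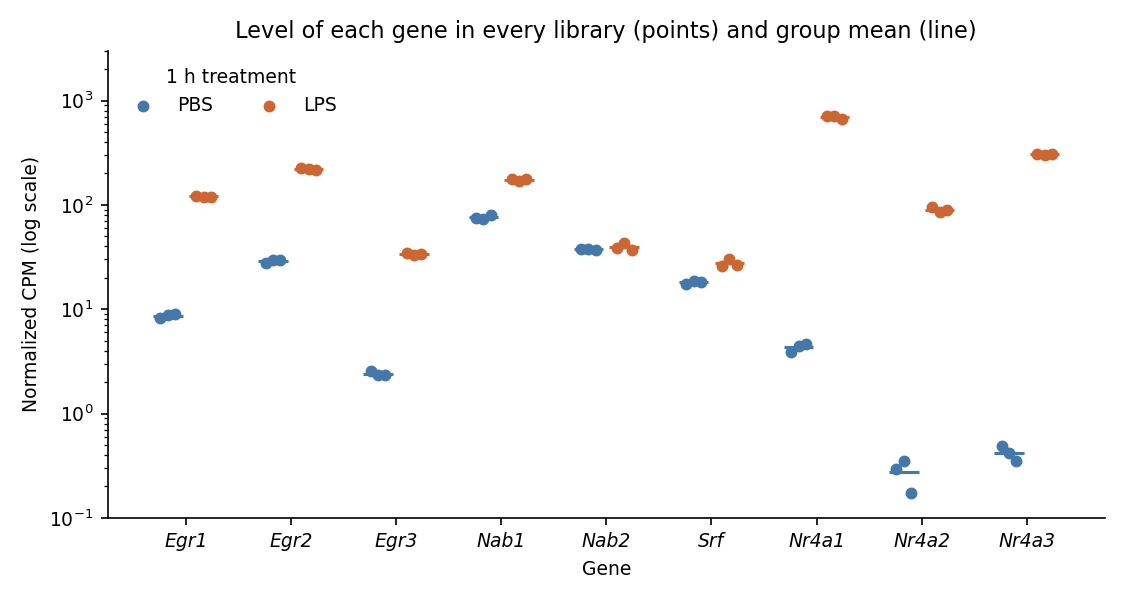
Level of each of the 9 genes as normalized CPM (log axis) in every library, with PBS libraries in blue, LPS libraries in orange and a line at the mean of each group of 3. The groups overlap for Nab2 alone, and the distance between them is widest for Nr4a3, from a mean of 0.417 to 304 CPM.

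The libraries held between 37787611 and 41516330 counts. Levels are given as CPM, the count per library size, after scaling by edgeR's TMM factors, which averaged 1.15 in PBS and 0.869 in LPS libraries. Without these factors the median over all tested genes shifted by -0.40 on the log2 scale, which is a shift that touches the small changes of Nab1, Nab2 and Srf described below. All 8 macrophage markers examined, Csf1r and Adgre1 among them, were tested and none passed the criteria, with log2 fold changes between -0.48 and 0.35. Of 19 markers of other blood, stromal and epithelial cells, 4 had at most 3 counts in every library, and the mast cell marker Mcpt4 was at 0 throughout. Another mast cell marker, Cpa3, had 17, 18 and 17 counts in PBS and 20, 33 and 17 counts in LPS libraries, a log2 difference of 0.90 (adjusted p = 0.0152, quasi-likelihood test of edgeR) that did not pass the fold criterion. The summed level of the 19 markers was 43.5 to 44.3 CPM in PBS and 60.6 to 65.7 CPM in LPS libraries. The largest means were those of S100a9 (19.4 CPM in PBS, 25.0 in LPS) and S100a8 (11.3 and 15.0), which did not pass the criteria. Of the markers, 4 of 11 tested (Cdh5, Flt3, Pdgfrb and Siglech) rose (36.4%, against 10.5% of all tested genes). The part of these markers in the results was not tested. In bulk RNA, more RNA per cell and more cells that express a gene cannot be told apart.

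All 3 NR4A genes rose, from low control levels, by more than any other of the 9 genes. Nr4a1 (Nur-type orphan receptor, chromosome 15, 101254269 to 101274795, plus strand in GENCODE M21 on GRCm38) had 185, 199 and 214 counts in the PBS libraries and 23881, 23112 and 22653 counts in the LPS libraries. The LPS libraries lay far above all PBS libraries, and neither group varied much within itself. The normalized level went from 4.31 ± 0.385 CPM to 695 ± 25.6 CPM (SD over 3 libraries each). On the log2 scale the difference was 7.33 with a standard error of 0.06, at an adjusted p of 6.28e-24 in the quasi-likelihood test of edgeR. Among the 15687 tested genes, 74 had a higher log2 fold change.

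Nr4a2 (Nurr1, known for its role in dopamine neurons; chromosome 2, 57106830 to 57124003, minus strand) was barely detected in control cells. It had 14, 16 and 8 counts in PBS libraries and 3225, 2776 and 3024 counts in LPS libraries. PBS replicate 3 was the lowest, and leaving out single libraries moved the log2 fold change between 8.11 and 8.56. The level rose from 0.274 ± 0.0921 CPM to 90.0 ± 5.61 CPM (SD over 3 libraries each). The log2 difference of 8.35 had a standard error of 0.10, the widest among the 9 genes (adjusted p = 3.25e-21, quasi-likelihood test of edgeR).

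Nr4a3 (NOR-type receptor; chromosome 4, 48045153 to 48086447, plus strand) had the largest fold of the 9. Its counts were 23, 19 and 16 in PBS libraries and 10321, 9713 and 10447 in LPS libraries. The level rose from 0.417 ± 0.0682 CPM to 304 ± 5.59 CPM (SD over 3 libraries each). On the log2 scale the difference was 9.50 with a standard error of 0.07, at an adjusted p of 2.59e-24 in the quasi-likelihood test of edgeR. On the linear scale this is a fold of 723, against 325 for Nr4a2 and 161 for Nr4a1. Only 19 tested genes had a higher log2 fold change in this fit, and for those without control counts the fitted value depends on the prior count.

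**Figure D2:**
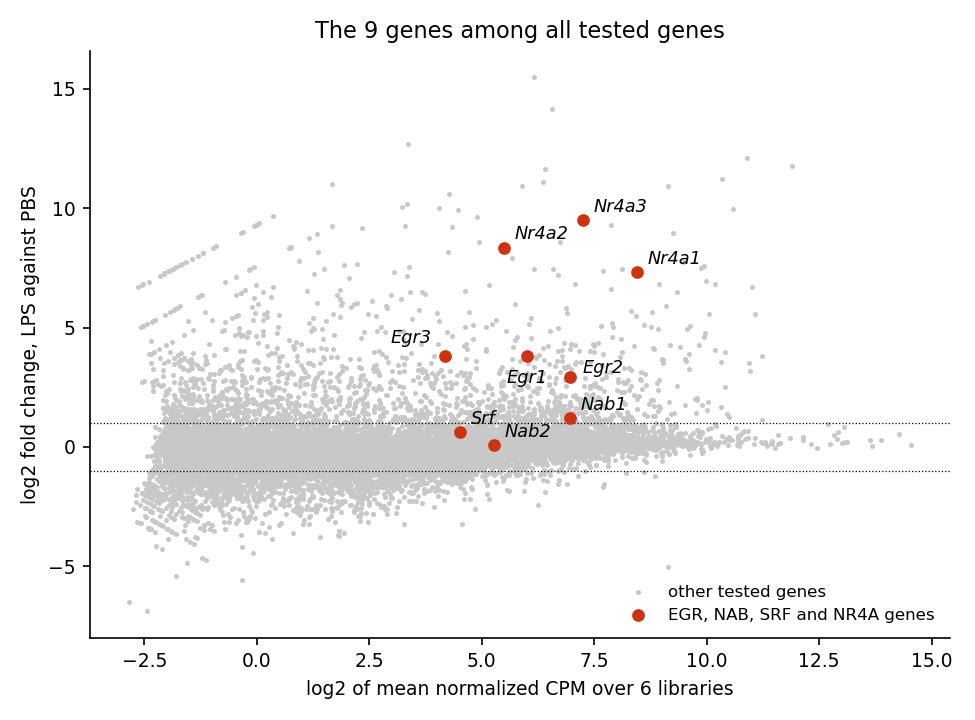
Log2 fold change of LPS against PBS plotted over the log2 of the mean normalized CPM of 6 libraries for 15687 tested genes (grey) with the 9 genes in red and dotted lines at the fold criterion. The NR4A genes lie at 7.33 to 9.50, the EGR genes at 2.93 to 3.82, Nab1 at 1.20, and Srf and Nab2 within the dotted lines.

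The order of fold and the order of abundance differed within the NR4A family. Per kb of annotated exon, Nr4a1 stood at 1.23 ± 0.110 CPM per kb in PBS libraries, while Nr4a2 (0.0675 ± 0.0227) and Nr4a3 (0.0696 ± 0.0114) did not differ beyond their spread (SD, n = 3 each). In LPS libraries the levels were 198 ± 7.30 CPM per kb for Nr4a1, 50.8 ± 0.933 for Nr4a3 and 22.2 ± 1.38 for Nr4a2, and these ranges did not overlap. Nr4a1 thus made up 89.9 ± 2.69% of the family's summed level in PBS and 73.1 ± 0.953% in LPS libraries. The share of Nr4a3 went from a mean of 5.15% (range 4.07 to 6.40%) to 18.7 ± 0.670%, and that of Nr4a2 from 4.98 ± 1.72% to 8.18 ± 0.435%. In none of the 3 genes did the shares of the groups overlap, and shares within a library do not depend on the scaling between libraries. The family's summed level was 1.37 ± 0.0909 CPM per kb in PBS and 271 ± 7.60 in LPS libraries.

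**Figure D3:**
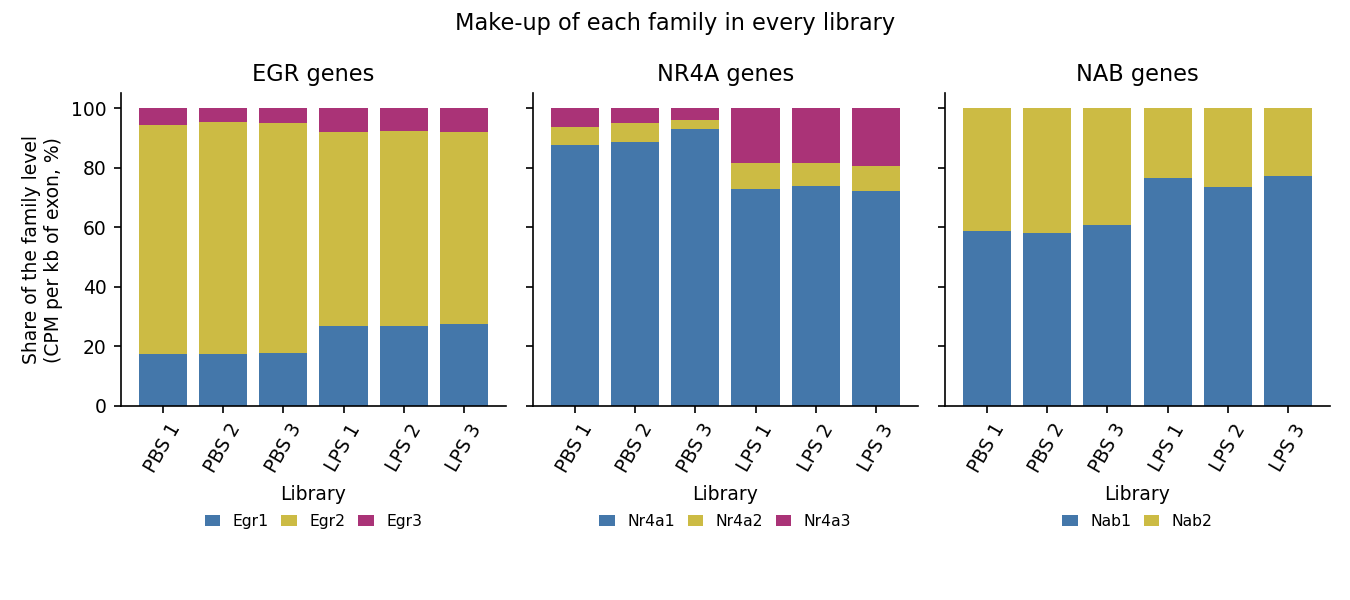
Share of each gene in the summed level of its family (CPM per kb of exon, in percent) in each of the 6 libraries, for the EGR, NR4A and NAB genes. With LPS, the share of Egr2 went from a mean of 77.3% to 65.1%, that of Nr4a3 from 5.15% to 18.7% and that of Nab2 from 40.8% to 24.1%.

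The sequences just before a RefSeq transcript start of each of the 3 NR4A genes are shown because all 3 rose together and each holds the same short motif 4 times. The motif TGACG, searched on both strands, is the core of the cAMP-response element bound by CREB and related factors, which are known to drive NR4A genes. Below are the 250 bases before the RefSeq start (GRCm38.p6), written from 5′ to 3′ on the strand of the gene, with matches to the motif on either strand in capitals. They lie at chr15:101266596-101266845 (plus strand) for Nr4a1, chr2:57124004-57124253 (minus strand) for Nr4a2 and chr4:48045055-48045304 (plus strand) for Nr4a3. In GENCODE M21 the Nr4a1 gene starts further upstream, at 101254269, so its window lies inside the gene. The sequence before that upstream start was not searched. The Nr4a3 window runs into its gene, which starts at 48045153.
Nr4a1: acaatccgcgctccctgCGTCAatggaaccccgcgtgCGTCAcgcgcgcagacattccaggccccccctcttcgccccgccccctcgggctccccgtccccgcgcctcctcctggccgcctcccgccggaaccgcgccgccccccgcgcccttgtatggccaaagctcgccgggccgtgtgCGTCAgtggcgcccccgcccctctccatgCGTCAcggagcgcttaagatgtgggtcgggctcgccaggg
Nr4a2: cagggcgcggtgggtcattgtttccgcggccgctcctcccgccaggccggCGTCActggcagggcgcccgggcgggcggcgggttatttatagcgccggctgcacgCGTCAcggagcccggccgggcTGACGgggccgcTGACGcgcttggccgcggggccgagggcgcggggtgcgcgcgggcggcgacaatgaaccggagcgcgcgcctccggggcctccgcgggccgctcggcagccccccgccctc
Nr4a3: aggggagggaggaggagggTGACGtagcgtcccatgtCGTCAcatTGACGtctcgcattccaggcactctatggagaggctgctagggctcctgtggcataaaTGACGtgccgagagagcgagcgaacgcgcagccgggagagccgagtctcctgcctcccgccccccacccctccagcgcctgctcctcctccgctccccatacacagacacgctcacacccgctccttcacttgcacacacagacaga

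Of all 32851 RefSeq windows of this length, 17.8% held the motif at least once and 0.137%, 45 windows, held it at least 4 times. The 3 windows were shown for holding 4 matches, so this share describes how rare such windows are and tests nothing. The same holds for the windows of Egr2 and Srf below, which were also shown for their matches. Windows were counted per transcript start, and a gene can have several that overlap. The motif contains a CG, so that its frequency moves with base composition. The GC content was 74.4% for Nr4a1, 80.0% for Nr4a2 and 63.6% for Nr4a3, against a median of 52.4% over all windows. The complete element TGACGTCA, found in 1.55% of windows, had no match in these 3. Matches lay 40 to 233 bases before the start in Nr4a1, 111 to 200 bases in Nr4a2 and 147 to 231 bases in Nr4a3, counted to the first base of each match. A match describes these letters and does not show that a factor was bound.

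Egr1, the founding member of its family and the best-known immediate early zinc finger factor, lies on chromosome 18 (34859823 to 34864984, plus strand). It had 395, 399 and 413 counts in PBS libraries and 4103, 3906 and 4069 counts in LPS libraries. Replicates differed little and the groups lay far apart, at 8.69 ± 0.349 CPM and 120.5 ± 1.53 CPM (SD, n = 3 each). The fold of 13.9 is 3.79 on the log2 scale, with a standard error of 0.04 and an adjusted p of 1.45e-21 in the quasi-likelihood test of edgeR. Of all tested genes, 2.03% had a higher log2 fold change.

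Egr3 (chromosome 14, 70077203 to 70082614, plus strand), known for its part in lymphocyte activation and muscle spindles, was the scarcest of the 3 EGR genes followed, in both groups. Its counts were 122, 105 and 108 in PBS libraries and 1172, 1088 and 1148 in LPS libraries. The level rose from 2.41 ± 0.133 CPM to 34.0 ± 0.827 CPM (SD over 3 libraries each). On the log2 scale the difference was 3.82 with a standard error of 0.07, at an adjusted p of 1.41e-18 in the quasi-likelihood test of edgeR. This value and that of Egr1 lay within 1 standard error of each other.

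Egr2 (chromosome 10, 67535475 to 67542188, plus strand), a factor needed for myelination that also marks alternatively activated macrophages, was the most abundant EGR gene before and after LPS. PBS libraries held 1312, 1337 and 1357 counts and LPS libraries 7533, 7195 and 7270. Its level went from 28.9 ± 1.13 CPM to 219.5 ± 5.49 CPM (SD, n = 3 each). The fold of 7.61, or 2.93 on the log2 scale (standard error 0.04; adjusted p = 1.01e-20, quasi-likelihood test of edgeR), was below those of Egr1 and Egr3.

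The make-up of the EGR family shifted accordingly. Per kb of exon, Egr2 made up 77.3 ± 0.395% of the summed EGR level in PBS and 65.1 ± 0.393% in LPS libraries (SD, n = 3 each). Egr1 went from 17.7 ± 0.166% to 27.1 ± 0.294%, and Egr3 from 4.99 ± 0.456% to 7.78 ± 0.130%. The ranges of the groups did not overlap for any of the 3 shares. The family's summed level was 11.0 ± 0.378 CPM per kb in PBS and 99.2 ± 2.04 in LPS libraries. In PBS libraries the NR4A genes together stood at 0.124 ± 0.00411 of the EGR level, and in LPS libraries at 2.73 ± 0.0241 times it.

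Egr4, the remaining gene of the family, had 0 counts in each PBS library. With LPS it reached 25, 14 and 9 counts. Their mean level was 7.40 times the mean floor of 3 counts per control library, a floor that covers counting error only. Egr4 was too low for the filter and was not tested. Wt1, a zinc finger gene whose protein binds related DNA sites, was at 0 in all 6 libraries.

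The sequence before the start of Egr2 is shown because it holds a CArG box, the site bound by SRF, between matches to the TGACG motif. Several RefSeq starts are listed for Egr2, and the window shown is the first one with a TGACG match (chr10:67537619-67537868, plus strand, GRCm38.p6). Capitals mark the CArG box and the TGACG matches on either strand.
Egr2: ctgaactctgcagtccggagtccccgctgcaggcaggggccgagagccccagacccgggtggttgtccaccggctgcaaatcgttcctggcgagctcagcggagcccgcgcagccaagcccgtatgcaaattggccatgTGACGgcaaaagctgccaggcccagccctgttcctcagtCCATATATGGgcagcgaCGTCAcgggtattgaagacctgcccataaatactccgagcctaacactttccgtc

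The CArG box, found in 1.47% of all windows, starts 72 bases before this start, and the TGACG matches start at 111 and 55 bases before it. The window was chosen for a TGACG match, and other Egr2 windows differed. That of the most upstream Egr2 start held neither motif, and that at chr10:67537316-67537565 held a CArG box without a TGACG match.

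Of the corepressors of the EGR proteins, Nab1 rose and Nab2 did not pass the test. Nab1 (chromosome 1, 52457294 to 52500679, minus strand) had 3541, 3311 and 3702 counts in PBS libraries and 5885, 5516 and 6050 counts in LPS libraries. It rose from 76.0 ± 3.74 CPM to 174 ± 4.53 CPM (SD over 3 libraries each). On the log2 scale the difference was 1.20 with a standard error of 0.04, at an adjusted p of 6.53e-15 in the quasi-likelihood test of edgeR. With scaling by library size alone this value was 0.79 (adjusted p = 6.87e-12 by the same test), which no longer passed the criterion on the fold.

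Nab2 (chromosome 10, 127660918 to 127668568, minus strand), itself known as a target of EGR proteins, had 1780, 1724 and 1701 counts in PBS libraries and 1289, 1413 and 1266 counts in LPS libraries. After scaling, its levels of 37.4, 38.2 and 36.9 CPM in PBS libraries overlapped those of 38.4, 43.3 and 37.2 CPM in LPS libraries, where replicate 2 was the highest. The log2 difference of 0.08 had a standard error of 0.05 and did not pass (adjusted p = 0.180, quasi-likelihood test of edgeR). Its direction turned with the scaling, to -0.32 with library size alone (adjusted p = 1.61e-05 by the same test) and -0.06 with upper quartile scaling (adjusted p = 0.297), so that no direction is given for Nab2. In GENCODE M21, 1050 exonic bases of Nab2 overlap the antisense gene Gm16229, 151 overlap Nemp1 and 40 overlap Stat6, all on the other strand. Gm16229 had at most 3 counts in any library. Nemp1 had 537 to 564 counts in PBS and 233 to 274 in LPS libraries, and Stat6 had 10517 to 11946 and 8510 to 8801. The strand setting of the counting is not given in the sources used here, and the part of these overlaps in the Nab2 counts was not tested.

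The ratio between the NAB genes is free of the scaling between libraries. Per kb of exon, the Nab2 level was 0.701, 0.726 and 0.641 times that of Nab1 in the PBS libraries and 0.305, 0.357 and 0.292 times that of Nab1 in the LPS libraries. The groups did not overlap, and the log2 ratio fell by 1.12 from PBS to LPS. An exact two-sided permutation test gave p = 0.1, the smallest p that 3 libraries against 3 allow. Against the NAB genes together, the summed EGR level per kb was 0.351 ± 0.0110 times as high in PBS libraries and 1.77 ± 0.0392 times as high in LPS libraries (SD, n = 3 each).

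Srf (chromosome 17, 46548329 to 46556175, minus strand), the MADS-box factor that binds CArG boxes, differed between the groups by less than the fold criterion. It had 835, 848 and 841 counts in PBS libraries and 876, 998 and 912 counts in LPS libraries. Its scaled levels did not overlap, at 17.5, 18.8 and 18.2 CPM in PBS libraries and 26.1, 30.6 and 26.8 CPM in LPS libraries, with replicate 2 again the highest. The log2 difference of 0.61 with a standard error of 0.06 passed the quasi-likelihood test of edgeR (adjusted p = 7.57e-08) but not the criterion on the fold, and an adjusted p under 0.05 was reached by 67.7% of all tested genes. Scaled by library size only, it was 0.21 (adjusted p = 0.00453 by the same test).

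The window before the start of Srf is shown because it holds the site of the SRF protein itself (chr17:46556163-46556412, minus strand, GRCm38.p6). Capitals mark the CArG boxes and a TGACG match.
Srf: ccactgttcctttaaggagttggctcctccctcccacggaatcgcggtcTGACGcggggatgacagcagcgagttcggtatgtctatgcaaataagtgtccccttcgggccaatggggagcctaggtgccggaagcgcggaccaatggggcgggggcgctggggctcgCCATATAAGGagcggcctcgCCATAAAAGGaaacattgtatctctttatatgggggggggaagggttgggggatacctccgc

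The 2 CArG boxes start 82 and 62 bases before the RefSeq start, and 6 of all 32851 windows, or 0.0183%, held 2 or more. Other motifs were searched in the 7 genes with a window. The EGR site GCGNGGGCG was searched on both strands and found at least once in 4.70% of all windows. It matched 3 times in Nab1 and once each in Srf, Nr4a1 and Nr4a2. Most of the Nab1 window (chr1:52500449-52500698, minus strand), with these 3 matches, lies within the gene as annotated in GENCODE M21, whose 5′ end is at 52500679. The share of windows with 3 or more matches was not counted. This site is rich in G and C, and the Nab1 window had 80.8% GC, against a median of 52.4% over all windows. The NR4A monomer site AAAGGTCA (1.34% of windows) matched in none of the 7 genes. The motif TATAAA (12.4% of windows) matched in Srf and Nr4a2. No CArG box, TGACG or EGR site was found in the Nab2 window, and Nab1 held 1 TGACG match. The Nab2 window (chr10:127666704-127666953, minus strand) lies inside the gene as annotated in GENCODE M21, whose 5′ end is at 127668568. The sequence before that end was not searched, so the lack of matches holds for this RefSeq start alone.

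**Figure D4:**
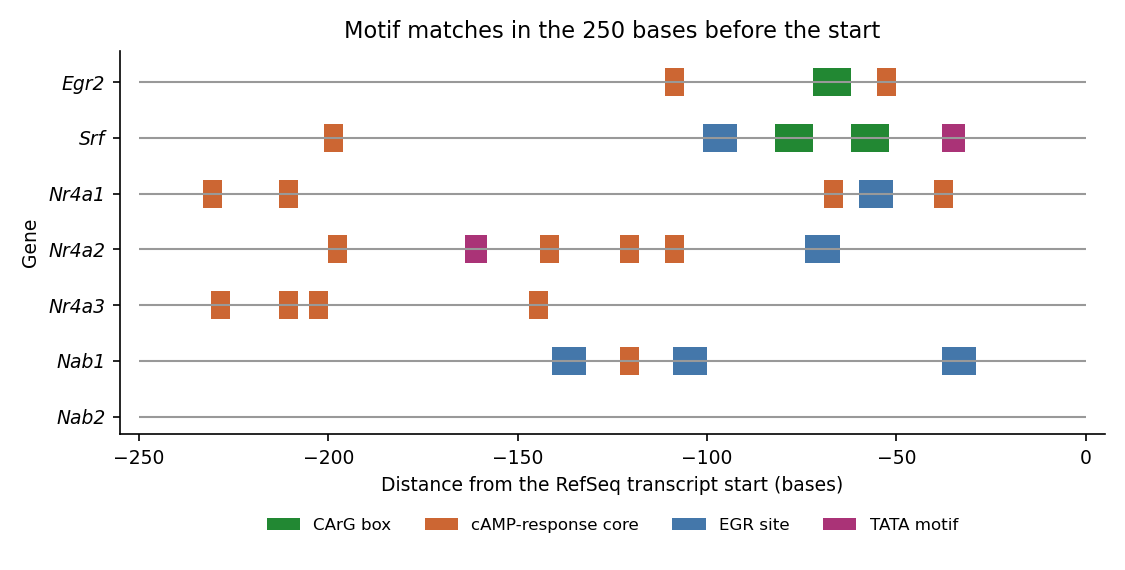
Motif matches in the 250 bases before the RefSeq start of 7 genes, drawn by distance from the start in bases, with the TGACG core motif in orange, the CArG box in green, the EGR site in blue and the TATA motif in purple. Each NR4A gene has 4 orange marks, CArG boxes are in Egr2 and Srf, and the Nab2 window has no mark.

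Across the 9 genes, the order of levels was rearranged by LPS. Per kb of exon in PBS libraries it ran from Nab1 (18.5 CPM per kb) over Nab2 (12.7), Egr2 (8.49), Srf (6.28), Egr1 (1.94), Nr4a1 (1.23) and Egr3 (0.547) down to Nr4a3 and Nr4a2. In LPS libraries it ran from Nr4a1 (198 CPM per kb) over Egr2 (64.6), Nr4a3 (50.8), Nab1 (42.4), Egr1 (26.9), Nr4a2 (22.2), Nab2 (13.5) and Srf (9.62) down to Egr3 (7.72). Apart from Nr4a3 and Nr4a2 in PBS libraries, the values of neighbours in these orders lay further apart than their SDs. Exon lengths are the union over all annotated transcripts, so the order rests on that choice.

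**Figure D5:**
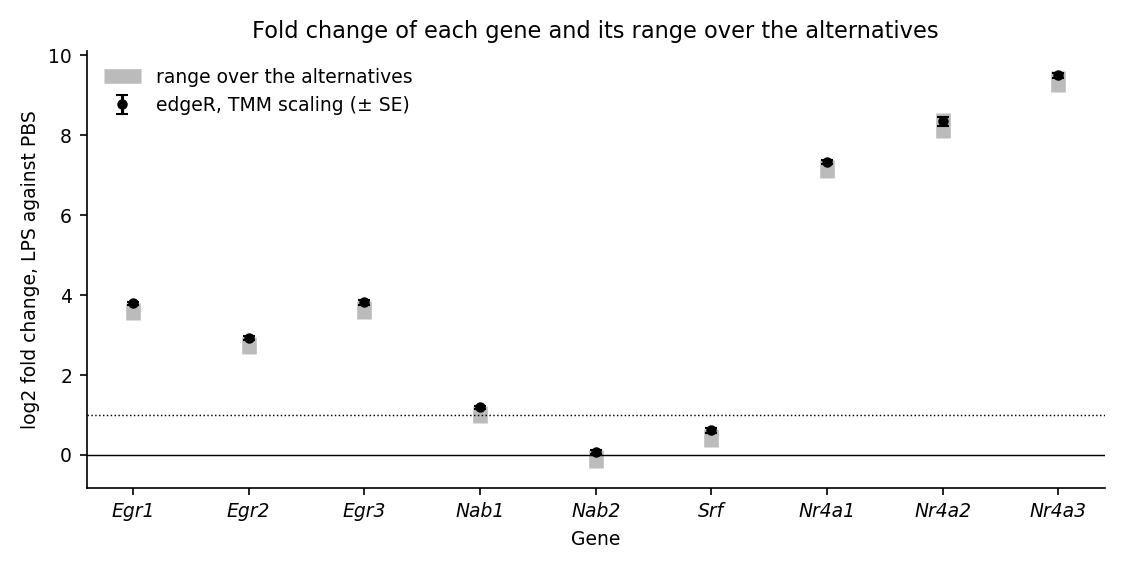
Log2 fold change of LPS against PBS for the 9 genes, with the standard error (bars on the points) and, in grey, the range over the alternative scalings, filters, tests and left-out libraries. Nab1 goes down to 0.79 and Nab2 spans 0, while the EGR and NR4A genes stay above 2.52.

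The genes that act with these regulators were counted by the same criteria, by which 10.5% of all tested genes rose and 10.4% fell, and nothing particular to these short lists is read from their counts. SRF cofactors (the ETS factors Elk1, Elk3 and Elk4, the myocardin-related factors Mrtfa and Mrtfb, and Fhl2) were all tested, and 0 of 6 passed the criteria, with log2 fold changes from 0.11 to 0.98. The MEF2 genes, whose proteins also drive Nr4a1, had 0 of 3 tested past the criteria. In the arm from Tlr4 to ERK and its RSK and MSK kinases, 1 of 16 tested genes rose and none fell. The exception was Nfkb1, whose precursor protein holds the kinase TPL2, at 2.67 on the log2 scale (standard error 0.04). For NuRD, the complex that NAB proteins recruit, 0 of 13 tested subunits passed, with log2 fold changes from -0.18 to 0.35. Of the RXR genes, whose proteins pair with Nr4a1 and Nr4a2, Rxra and Rxrb were tested and neither passed, and Rxrg had at most 1 count.

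Genes downstream of the regulators were counted as well. In a list of 20 genes described elsewhere as targets of Egr1, all were tested, 15 rose (75%, against 10.5% of all tested genes) and none fell, with a median log2 fold change of 3.25. Several of these are also known targets of NF-κB. The largest were Ptgs2, the inducible cyclooxygenase (12.11), Id3, an inhibitor of helix-loop-helix factors (7.47), and Tnf (6.83). The values for Hmox1 (-0.08), Pdgfa (0.56), Tgfb1 (0.56) and Fn1 (0.58), named after they were seen, did not pass the criteria. Among 18 cytoskeletal and matrix genes known as targets of SRF with its MRTF partners, 3 rose (16.7%, near the 10.5% of all tested genes) and none fell. These were Ccn1 (log2 fold change 2.08, standard error 0.24), Ccn2 (1.75, standard error 0.14) and Tagln2 (1.04, standard error 0.04), and the last value was 0.63 with scaling by library size alone. Actb and Actg1, the cytoplasmic actins, named after their values were seen, had log2 fold changes of 0.18 and 0.70.

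The genes with the most similar profiles were sought among 10704 other protein-coding genes averaging 50 counts or more, by the root mean square difference of log2 CPM (prior count 2), each less its PBS mean, over the 6 libraries. Nearest to Nr4a1 were Dusp2 (0.0364) and Dusp5 (0.0797), phosphatases that act on MAP kinases. Nr4a2 was nearest to Dusp14 (0.131) and Tnfsf4 (0.298), and Nr4a3 to Tnfsf9 (0.319) and Il23a (0.378), where few control counts make the measure depend on the prior. Egr1 was nearest to the chemokine Ccl3 (0.0422) and to Stx11 (0.0437), and Egr3 to Plek (0.0468) and Ccl3 (0.0586). For Egr2 the nearest were Klhl25 (0.0590) and Orai2 (0.0606). Nab1 was nearest to Fnbp1l (0.0166) and Zdhhc21 (0.0225), Nab2 to Nudc (0.0223) and Nsfl1c (0.0229), and Srf to H1f0 (0.0251) and Mical2 (0.0408). With 6 libraries in 2 groups, this measure reflects mostly the size of the fold.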

How the data were processed

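The authors prepared stranded total RNA libraries, aligned paired-end reads to GRCm38 with HISAT2 2.1.0, used SAMtools 1.17 and counted reads per gene with featureCounts 2.0.0. The deposited table holds these raw counts. The annotation release, strand setting and treatment of multi-mapping reads are not given in the sources used here. Of 55335 identifiers, 55154 matched GENCODE M21 with the version ignored.

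Counts were analysed in R 4.3.3 with edgeR 4.0.16 (default filter, TMM, quasi-likelihood test, Benjamini-Hochberg adjustment over 15687 genes) without a batch term, with thresholds of 0.05 on the adjusted p and 1 on the size of the log2 fold change. A floor of 3 counts corresponded to 0.0630 to 0.0919 CPM. The functions were tested on simulated data. The labels give same-numbered replicates the same batch number, so the numbers pair the libraries, although deviations of pairs from the group means had correlations of only -0.0139 to 0.0822 across genes. Alternatives were DESeq2 1.42.0, limma voom 3.58.1, a test against a fold, other scalings and filters, the replicate block and each library left out.

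Named were the 9 genes, up to 3 genes per list with the largest change past the criteria and a mean of at least 50 counts, and the 2 nearest profiles per gene. Other genes given with values were chosen after these were seen. Members and lists were chosen with earlier results of these data known. Promoter sequences are from RefSeq (GRCm38.p6) and were found for 7 of the 9 genes. Values of some genes in the lists are not reported here.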

Additional observations from a re-analysis of the deposited data

How the results depend on the processing

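Under all alternatives tried, Egr1, Egr2, Egr3, Nr4a1 and Nr4a3 stayed past the criteria, and so did Nr4a2 wherever it was tested; the filter of 10 counts in every library removed it, which left 6 of the 9 genes past the criteria. Scaling by library size alone also left 6, since Nab1 was at 0.79. Leaving out each library in turn gave 7 rises each time, with 1666 to 1764 rises and 1635 to 1711 falls over all genes. Nab2 turned to -0.32 with library size alone and to -0.062 with upper quartile scaling. Its nearest profiles turned as well, Nsfl1c to -0.34 and -0.073 and Nudc to -0.32 and -0.058, in this order. A change of scaling shifts all genes by about the same amount, so genes with a fold near that of Nab2 turn with it. Without LPS replicate 2 the log2 fold change of Nab2 was 0.01 and that of Srf 0.54. The replicate block gave 7 rises among the 9 genes, with Nab2 at 0.08 (adjusted p = 0.103, quasi-likelihood test of edgeR), and changed no call among them; over all genes it gave 1652 rises and 1624 falls, against 1653 and 1624 without it. The number of falls over all genes was 2964 with library size alone, 1027 with at least 10 counts in every library and 922 when the fold criterion was part of the null hypothesis, and rises were then 1213, 1141 and 1332. The log2 Nab2 to Nab1 ratio differed by -1.20 to -1.06 when libraries were left out and by -1.12 with the replicate block. The control levels of Nr4a2 and Nr4a3 rest on 8 to 23 counts per PBS library, which limits their precision.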
